A study of Mus musculus with 4 samples.

Results

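The proteasome subunit genes and their close partners were examined in 4 ATAC-seq libraries of LSK cells, the Lin-Sca1+Kit+ fraction of mouse bone marrow, in which blood stem cells and early progenitors are enriched. ATAC-seq marks open chromatin, because a transposase inserts sequencing adapters where DNA is accessible. Libraries WT 1 and WT 2 came from wild-type mice (p53+/+), and libraries R248W 1 and R248W 2 from mice heterozygous for the R248W mutation of p53 (p53R248W/+), a tumor suppressor and transcription factor, with 50000 cells per library. The study addressed transcriptional regulation by mutant p53. The labels give no age, and do not say whether replicate libraries are from different mice, so the spread between them may be technical. Where 4 values are listed they follow the order WT 1, WT 2, then R248W 1, R248W 2. The members were all genes in the deposited interval table whose symbol starts with Psma, Psmb, Psmc, Psmd, Psme, Psmf or Psmg followed by a digit. There were 48 such symbols among 20811 genes with an assigned interval, and they were named in 440 of 220733 intervals. One of them, Psmc3ip, encodes a meiotic recombination factor and is no proteasome gene, so counts below refer to the other 47.

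The proteasome is the protease that degrades ubiquitin-tagged proteins, p53 among them. Its barrel-shaped core is built of outer alpha rings, which gate the entry, and inner beta rings, whose beta1, beta2 and beta5 subunits cut peptides. A regulatory particle caps the core, and its ATPase subunits (Psmc genes) unfold substrates. Some of its non-ATPase subunits, which most Psmd genes encode, bind ubiquitin chains or remove them. In immune cells and under interferon-gamma, the catalytic subunits are exchanged for the immunoproteasome subunits, which favor peptides for presentation on major histocompatibility complex class I molecules. Transcription of constitutive subunit genes is known to be raised by NFE2L1 through antioxidant response elements, and immunoproteasome genes are known to respond to IRF1.

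Sequences just upstream of 7 start sites are shown for reference, and no result on signal below was computed from them. They belong to the catalytic subunits and their immunoproteasome counterparts, and to the members with the highest and the lowest mean start-site percentile. They are RefSeq promoter sequences of GRCm38.p6, 5′ to 3′ on the strand of the gene, ending at the last base before the annotated start and leaving out bases inside a neighboring gene. Psmb7, the constitutive beta2 gene, is not shown. Capitals mark matches to any of 6 short motifs searched on both strands: the antioxidant response element core TGACNNNGC, the interferon-stimulated response element core, the gamma-activated site TTCNNNGAA, the CCAAT box CCAAT, the GC box GGGCGG and the NRF1 core. NRF1 here stands for nuclear respiratory factor 1, a different protein from NFE2L1. The constitutive beta5 gene Psmb5 (chr14:54617996-54618245, minus strand) and its immunoproteasome counterpart Psmb8 (chr17:34197945-34198194, plus strand) read as follows.
Psmb5: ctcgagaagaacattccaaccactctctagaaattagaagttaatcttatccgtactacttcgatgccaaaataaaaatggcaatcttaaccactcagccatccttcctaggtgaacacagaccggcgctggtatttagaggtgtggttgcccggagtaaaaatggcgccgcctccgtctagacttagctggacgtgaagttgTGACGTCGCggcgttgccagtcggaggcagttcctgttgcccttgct
Psmb8: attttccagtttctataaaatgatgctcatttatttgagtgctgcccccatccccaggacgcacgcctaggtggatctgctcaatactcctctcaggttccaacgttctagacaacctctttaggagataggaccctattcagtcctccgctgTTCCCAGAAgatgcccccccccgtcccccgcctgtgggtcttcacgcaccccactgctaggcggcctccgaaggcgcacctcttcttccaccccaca
The constitutive beta1 gene Psmb6 (chr11:70525107-70525356, plus strand) is set beside Psmb9 (chr17:34187331-34187555, minus strand), whose 225 bases are the whole stretch up to the divergent start of Tap1.
Psmb6: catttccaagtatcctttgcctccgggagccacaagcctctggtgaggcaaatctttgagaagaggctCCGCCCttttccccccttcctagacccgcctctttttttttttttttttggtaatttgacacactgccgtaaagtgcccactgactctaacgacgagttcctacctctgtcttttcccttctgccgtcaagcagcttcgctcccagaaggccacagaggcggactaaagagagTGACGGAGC
Psmb9: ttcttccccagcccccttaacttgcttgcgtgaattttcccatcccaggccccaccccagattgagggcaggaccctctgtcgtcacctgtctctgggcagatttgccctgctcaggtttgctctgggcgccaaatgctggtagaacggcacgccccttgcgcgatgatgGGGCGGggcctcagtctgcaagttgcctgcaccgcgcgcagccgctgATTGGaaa
The immunoproteasome beta2 gene Psmb10 (chr8:105938393-105938642, minus strand) held none of the 6 motifs in this window.
Psmb10: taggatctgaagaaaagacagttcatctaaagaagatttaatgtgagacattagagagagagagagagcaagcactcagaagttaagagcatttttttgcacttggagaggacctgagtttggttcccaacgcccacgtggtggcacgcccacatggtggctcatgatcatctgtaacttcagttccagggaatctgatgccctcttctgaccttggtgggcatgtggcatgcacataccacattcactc
Psma2 (chr13:14613038-14613241, plus strand, 204 bases up to the divergent gene Mrpl32) had the highest mean start-site percentile over the 4 libraries and Psmd9 (chr5:123227940-123228189, plus strand) the lowest.
Psma2: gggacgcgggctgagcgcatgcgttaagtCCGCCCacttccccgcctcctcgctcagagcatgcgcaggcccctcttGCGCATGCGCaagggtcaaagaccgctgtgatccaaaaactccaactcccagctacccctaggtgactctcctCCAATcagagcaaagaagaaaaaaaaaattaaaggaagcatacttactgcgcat
Psmd9: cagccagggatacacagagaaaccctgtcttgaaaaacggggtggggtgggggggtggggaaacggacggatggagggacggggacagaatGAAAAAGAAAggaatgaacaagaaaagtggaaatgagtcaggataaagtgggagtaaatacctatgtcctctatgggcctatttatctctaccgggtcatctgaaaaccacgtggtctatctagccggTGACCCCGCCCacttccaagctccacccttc
A promoter sequence was found for 40 of the 47 genes. An antioxidant response element core lay in the 250 bases upstream of Psmb5, Psmb6, Psmc6, Psmd12 and Psmd9, or 12.5% of the 40 genes. It lay in 10.2% of 32851 RefSeq promoter windows of the same length. Among windows of genes whose start site was accessible in all 4 libraries (accessible genes), the share was 12.3%. Member shares count a gene with a match in any of its windows. In Psmd9 the antioxidant response element core overlaps a GC box. The gamma-activated site was found at Psmb8 and Psmg1 (5%, against 7.02% of all windows and 5.82% of those of accessible genes). The interferon-stimulated element core was found at Psmb3, Psmd4 and Psmd9 (7.5%, against 2.98% and 2.59%). The NRF1 core was found at Psma2 alone (2.5%, against 0.782% and 1.66%). CCAAT boxes were present at 14 genes (35%, against 33.8% and 35.3%) and GC boxes at 22 (55%, against 32.7% and 58.9%). These matches describe letters in a window and not bound sites.

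Start sites of proteasome genes were accessible in nearly every case. A start-site interval is one whose summit lies within 1 kb of the gene's start by the authors' distances. Such an interval was called in all 4 libraries for 45 of the 47 genes (95.7%), against 12517 of 20811 genes in all (60.1%). Psmb11, the thymus-specific beta5t subunit, had no start-site interval in any library, and the interval assigned to it was the one at the neighboring Psmb5 start. Psmb1, the beta6 subunit, lacked one in WT 1 only. There the Psmb1 start and the neighboring start of Tbp, which encodes the TATA-binding protein, fell in 1 joint interval of 2943 bases with its summit 1564 bases upstream of Psmb1, while each of the other libraries had separate intervals and highest-bin signals of 268, 296 and 176 at Psmb1. Psma8, the testis-specific alpha subunit, had no assigned interval in the table used here.

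The summits lay close to the annotated starts. In the 4 libraries, 43, 46, 44 and 44 proteasome genes had the summit within 250 bases of the start, or 95.6 to 100% of those with an interval, against 77.7 to 79.2% of all genes with one. The wider exceptions were Psmb8 in WT 1 (summit at -563 bases, where negative is upstream), Psme2 in every library but WT 2 (-483, -547 and -547, in an interval that also holds the start of Rnf31) and Psmg2 in the R248W libraries (-319 and -255). Intervals contained a CpG island at 40 of 45, 41 of 46, 41 of 46 and 41 of 46 genes (88.9 to 89.1%, against 79.0 to 81.2% of all genes with a start-site interval). The 5 genes without one were Psmb3, Psmb6, Psmb8, Psmb10 and Psmd10. The interval was shared with the start of another gene for 10 genes in each library (21.7 to 22.2%, against 20.2 to 21.2% of all genes). These 10 pairs were Psma2 with Mrpl32, Psma4 with AY074887, Psma7 with Ss18l1, Psmb9 with Tap1, Psmc2 with Dnajc2, Psmc5 with Ftsj3, Psmd10 with Atg4a, Psmd13 with Sirt3, Psme2 with Rnf31 and Psmg2 with Cep76. Signal at a shared interval cannot be assigned to 1 of its genes.

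Signal was described by the highest-bin signal of each interval, the authors' value for its tallest bin of about 32 bases, and by its percentile among all intervals of the same library. Ranks within a library were used because the scaling of the signal is unknown: the median signal over all intervals was 52, 62, 62 and 50. Proteasome start sites ranked high, with a median percentiles of 86.8, 88.9, 89.5 and 87.9. The medians over all genes with a start-site interval were 82.6, 84.4, 84.4 and 82.4, and those over start sites with a CpG island were 85.3, 87.3, 87.3 and 85.5. Few proteasome genes had a weak start site: 0, 2, 2 and 2 lay below the 50th percentile (0 to 4.35%), against 15.9 to 17.4% of all genes. At the upper end the difference was small, with 35.6 to 43.5% above the 90th percentile against 32.7 to 36.6%. The order of the genes was similar in every library (Spearman's rho 0.937 to 0.978 over 45 genes for the 6 pairs of libraries, and 0.967 to 0.984 over 12517 genes). The points share CpG content and local sequence, so these values only describe how alike the lists are.

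**Figure D1:**
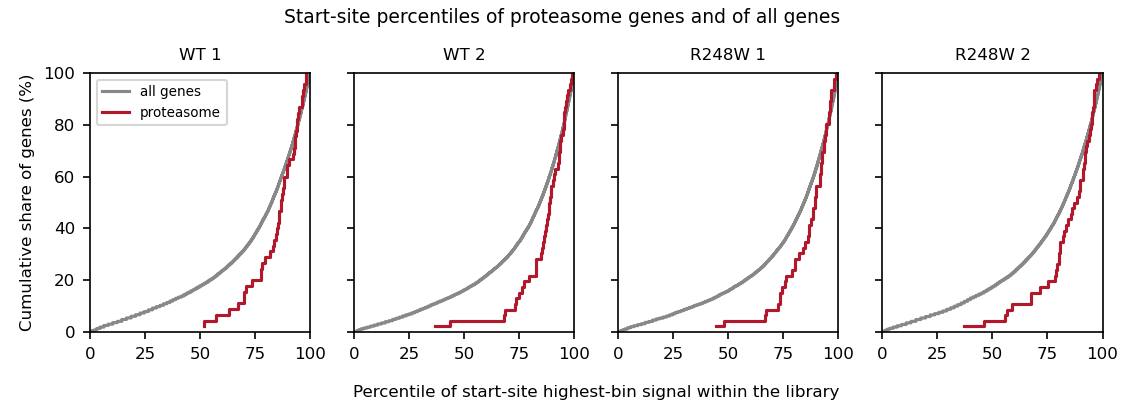
Cumulative share of genes (vertical axis, %) by the percentile of their start-site highest-bin signal within the library (horizontal axis), with 1 panel per library, for proteasome genes in red and all genes with a start-site interval in gray. The red line stays below the gray line over the lower percentiles in all 4 panels, with medians of 86.8 to 89.5 against 82.4 to 84.4.

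The alpha ring genes formed the most uniformly accessible group. Their mean percentiles over the 4 libraries ran from 86.0 (Psma1, alpha6) to 98.6 (Psma2, alpha2), and 6 of the 7 lay above the 90th percentile in each library. The highest-bin signals of Psma2 were 344, 595, 589 and 379. Its percentiles of 98.2, 98.9, 98.7 and 98.6 put it at the top of all members, level with Psmc6 in WT 1. Psma1 had signals of 127, 223, 215 and 156, at percentiles of 82.0, 88.0, 86.8 and 87.3, with WT 1 lowest. Between these ends lay Psma6 (mean percentile 96.8), Psma5 (96.0), Psma3 (94.8), Psma7 (94.2) and Psma4 (92.7).

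Among the beta subunits without catalytic activity, Psmb3 (beta3) was highest and Psmb4 (beta7) lowest. Psmb3, which has no CpG island in its interval, had signals of 305, 402, 391 and 258 and a mean percentile of 96.1. Psmb4 had 87, 150, 117 and 114, at percentiles of 71.1, 79.7, 72.5 and 80.1. The WT and R248W values of Psmb4 overlapped. Psmb1 and Psmb2 (beta4) lay between, at mean percentiles of 91.0 (over 3 libraries) and 86.7.

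Most catalytic beta genes, constitutive and immunoproteasome alike, ranked low among core subunits. Group medians were 70.9 (constitutive) and 72.4 (immunoproteasome), against 94.8 for the alpha ring and 88.8 for the non-catalytic beta genes. Psmb9 and Psmb6 were the exceptions, both above the non-catalytic Psmb4 (mean percentile 75.8). The 3 constitutive genes had mean percentiles of 63.5 (Psmb5), 70.9 (Psmb7) and 84.1 (Psmb6), and the 3 immunoproteasome genes 68.1 (Psmb10), 72.4 (Psmb8) and 89.3 (Psmb9). Start sites of the immunoproteasome genes were thus accessible in all 4 libraries, at ranks that overlapped those of their constitutive counterparts. Psmb9 stood above Psmb6 in each library: the signals of Psmb9 were 169, 217, 249 and 201, those of Psmb6 141, 215, 186 and 118. The difference in percentile was 3.97, 0.16, 5.56 and 11.1, smallest in WT 2. The Psmb9 interval also holds the start of Tap1, so its signal cannot be assigned to Psmb9 alone. Psmb8 also stood above Psmb5 in each library, with signals of 84, 118, 126 and 86 against 70, 99, 98 and 57. Its percentile was 6.81, 5.40, 7.55 and 15.9 points higher. The Psmb8 summit lay at -563 bases in WT 1 but at 109 to 125 bases in the other libraries, so the WT 1 signal was read at a different position. The beta2 pair had no fixed order. Psmb10 had 94, 101, 121 and 58 and Psmb7 78, 125, 122 and 76, so that the difference in percentile was 6.33, -6.46, -0.23 and -11.0.

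Averaged over the 3 pairs, immunoproteasome genes stood 5.70, -0.30, 4.29 and 5.34 percentile points from the constitutive genes, a mean of 3.76 ± 2.77 (SD over 4 libraries). The sign in WT 2 differed from the others, and the WT values spanned the R248W values. The Psmb9 values in these averages come from the interval shared with Tap1. No test was made, since members are not replicates and 2 libraries against 2 allow no two-sided exact permutation p under 0.33. When Psme1 and Psme2, the other interferon-inducible members, were added and all remaining proteasome genes served as the comparison, the mean difference was -3.04. Psmb8 and Psmb10 had no CpG island in their intervals, and neither did Psmb6.

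**Figure D2:**
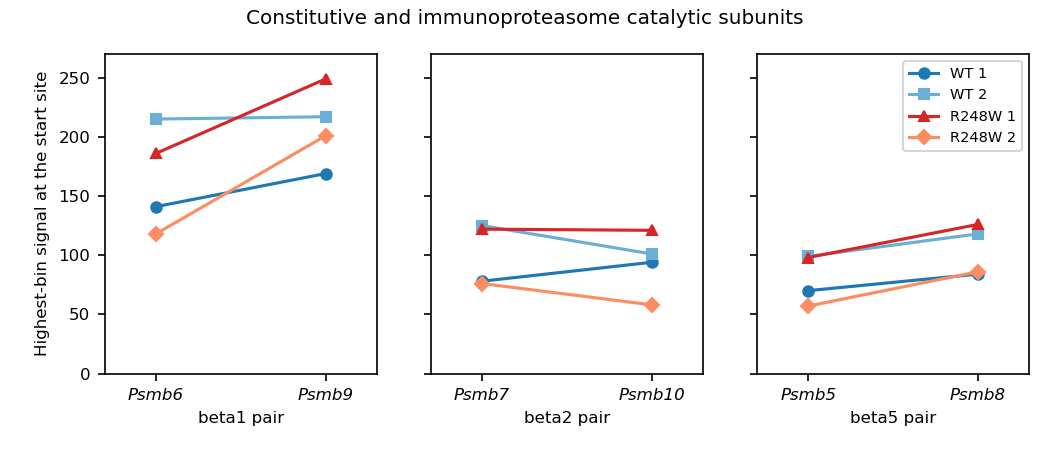
Highest-bin signal at the start site (vertical axis, the authors' signal) of each constitutive catalytic gene and its immunoproteasome counterpart, with 1 line per library and 1 panel per pair. Lines rise from Psmb6 to Psmb9 and from Psmb5 to Psmb8 in all 4 libraries, while from Psmb7 to Psmb10 the line of WT 1 rises and the other 3 do not. The Psmb9 interval also holds the start of Tap1.

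Psmb9 and Psmb8 lie in the same part of the class II region of the major histocompatibility complex on chromosome 17, interleaved with Tap1 and Tap2, which encode the transporter that carries proteasome products into the endoplasmic reticulum. The interval at the start of Psmb9 also covered the start of Tap1 in every library (in WT 1 from 34186395 to 34188511 on mm10). The interval at Psmb8 reached into the end of Tap1. It was a single interval of 2825 bases in WT 1, 2779 in WT 2 and 2909 in R248W 2, whereas R248W 1 had a pair of adjoining intervals there, with signals of 119 and 126. An interval near the Tap2 start, 6285 to 6317 bases downstream of the Psmb8 start, had signals of 59, 81 and 56 in WT 1, WT 2 and R248W 2 and was not called in R248W 1. An interval 12525 to 12589 bases downstream of the Psmb8 start, inside Tap2, had 141, 313, 271 and 135, which exceeds the signals at Psmb8 itself in each library.

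**Figure D3:**
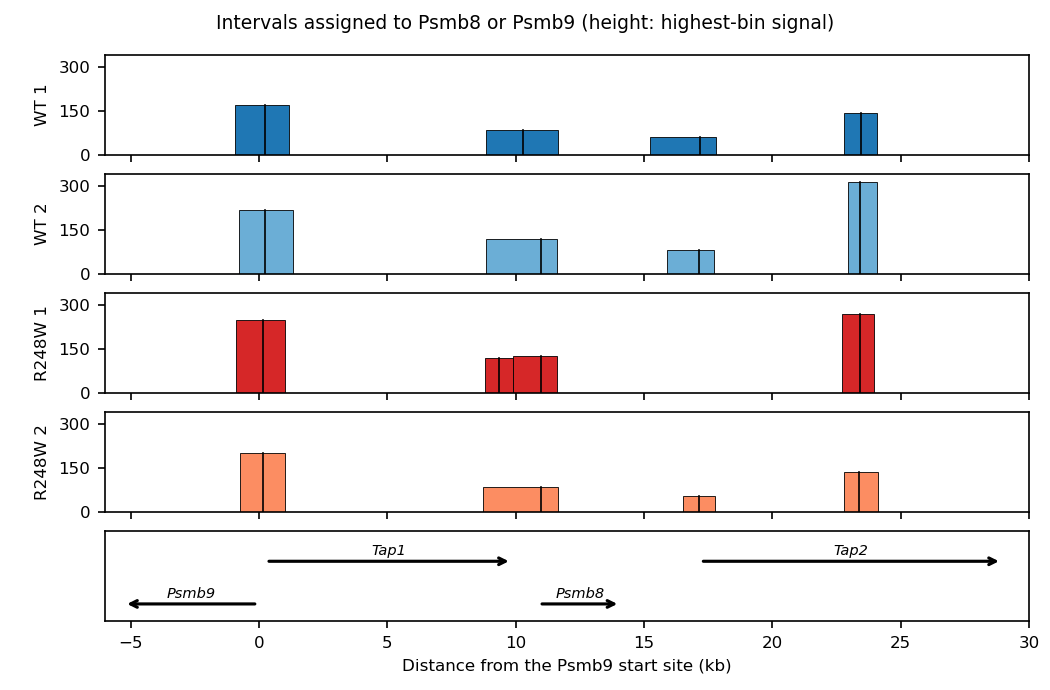
Intervals assigned to Psmb8 or Psmb9 in the 4 libraries, drawn to scale by distance from the Psmb9 start (horizontal axis, kb), with bar height giving the highest-bin signal, black lines the summits and arrows the genes and their direction. All libraries show an interval at the Psmb9 and Tap1 starts (169 to 249) and at Psmb8 (84 to 126), and the interval near the Tap2 start is missing from R248W 1.

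Within the regulatory particle, the ATPase genes split into high and moderate members. Psmc4 (Rpt3), with signals of 294, 558, 536 and 314, and Psmc6 (Rpt4) had mean percentiles of 97.8 and 97.7. Psmc5 (Rpt6) was lowest, with 84, 136, 132 and 107 and percentiles of 69.9, 77.2, 75.8 and 78.4. WT 1 was the lowest library for Psmc5, and the genotypes overlapped. Psmc3, Psmc2 and Psmc1 had mean percentiles of 89.1, 86.3 and 79.9. Of the 11 non-ATPase subunit genes, Psmd8 (Rpn12) was highest, with signals of 252, 434, 424 and 264 and a mean percentile of 96.0. Psmd2 (Rpn1), a scaffold that docks ubiquitin-binding proteins, was lowest at 64.1, and its percentiles of 57.4, 73.1, 66.7 and 59.0 overlapped between genotypes. The gene of the deubiquitinase Psmd14 (Rpn11) had a mean percentile of 86.5, and that of the ubiquitin receptor Psmd4 (Rpn10) 94.2.

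The weakest start sites belonged to assembly chaperones. Psmd9, which helps to assemble the ATPase ring, had signals of 54, 54, 55 and 40, at percentiles of 51.8, 43.8, 44.2 and 37.3. Psmg3, which encodes a chaperone of the alpha ring, had 54, 47, 60 and 47, at 51.8, 36.9, 48.2 and 46.2. The pair was level in WT 1, and Psmg3 was the lower in WT 2. The genotypes overlapped for Psmg3, and for Psmd9 the values of WT 2 and R248W 1 were nearly equal. Other chaperone genes ranked far higher: Psmd10, which encodes gankyrin, had a mean percentile of 92.3, Psmd5 89.9, Psmg4 92.8, Psmg2 85.1 and Psmg1 80.9. Psmg4, with signals of 212, 306, 304 and 216, was the member whose percentile varied least, by 0.53 points over the libraries. Psmb10 varied most, by 16.8 points, and the median over the members was 4.62.

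The activators bind the ends of the core. Psme2, the beta subunit of the interferon-inducible activator PA28, had signals of 234, 333, 389 and 239 and a mean percentile of 94.5. Its partner Psme1 had 137, 203, 238 and 144 and a mean percentile of 86.1. Psme4, the nuclear activator PA200, had 180, 378, 332 and 278, at percentiles of 89.6, 95.6, 93.8 and 96.3, with WT 1 lowest. Psme3, the nuclear PA28 homolog, had 109, 132, 135 and 76, at 77.9, 76.5, 76.4 and 67.7. R248W 2 was lowest for Psme3. Psmf1, which encodes the core-binding regulator PI31, had 116, 200, 171 and 108 and a mean percentile of 81.6.

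**Figure D4:**
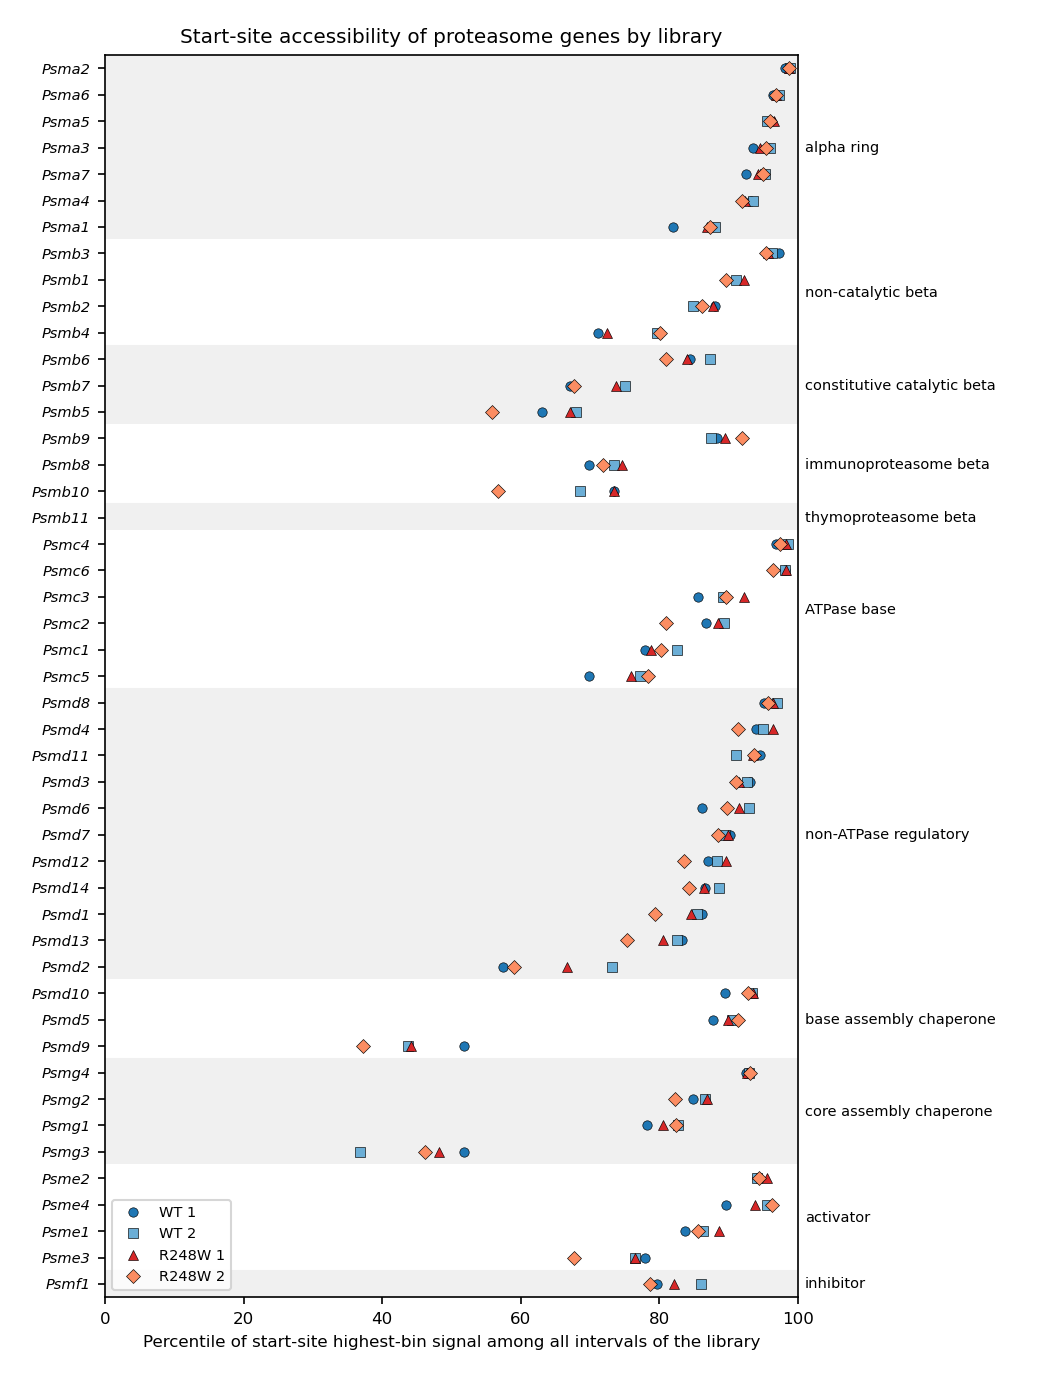
Percentile of the start-site highest-bin signal among all intervals of its library (horizontal axis) for each proteasome gene (vertical axis), grouped by role, with 1 symbol per library. Alpha ring genes lie at or above 82.0, the catalytic beta genes spread from 55.9 to 92.0, Psmd9 and Psmg3 lie lowest, and Psmb11 has no start-site interval.

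To ask whether mutant p53 altered these start sites, signals were compared between genotypes on a common distribution. For each of 12517 genes with a start-site interval in all 4 libraries, log2 highest-bin signals were quantile-normalized and tested with limma, with Benjamini-Hochberg adjustment over all of these genes. None of the 45 proteasome genes tested passed an adjusted p of 0.05 (smallest limma adjusted p = 0.997), and 0 reached 0.05 without adjustment. Over all genes, 2 passed (0.016%), and 602 were below 0.05 unadjusted (4.81%). The median difference over the proteasome genes was -0.01 on the log2 scale, R248W minus WT, against 0.0018 over all genes. Of the members, 18 lay above 0 and 27 below (40% above, against 50.3% of all genes).

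The members with the largest differences still fell short of the threshold. On the log2 scale, R248W minus WT, Psmd13 (Rpn9) had -0.31 ± 0.18 (SE, 95% interval -0.67 to 0.05). Its signals of 134, 170, 159 and 96 gave percentiles of 83.2, 82.6, 80.5 and 75.3, both R248W values being the lower. Psmd9 had -0.28 ± 0.27 (-0.81 to 0.25) and Psme3 -0.28 ± 0.20 (-0.67 to 0.12). In the other direction, Psmc3 (Rpt5) had 0.25 ± 0.15 (-0.04 to 0.55), from signals of 149, 240, 296 and 175, Psme4 0.21 ± 0.13 (-0.05 to 0.47) and Psmb9 0.21 ± 0.15 (-0.09 to 0.50). The value of Psmb9 is also that of Tap1, since both genes share the interval. The width of the 95% interval differed between members, from -0.18 to 0.22 for Psma2 and -0.23 to 0.21 for Psmc4 to -0.81 to 0.25 for Psmd9. The median absolute difference between the 2 libraries of a genotype was 0.15 for WT and 0.12 for R248W over the members. Without WT 1, the value of Psmd9 was 0.032, that of Psme4 -0.012, that of Psme3 -0.11 and that of Psmd13 -0.18. The value of Psmb9 was 0.073 without WT 2. Without R248W 2 it was 0.041, and that of Psme4 was 0.015.

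**Figure D5:**
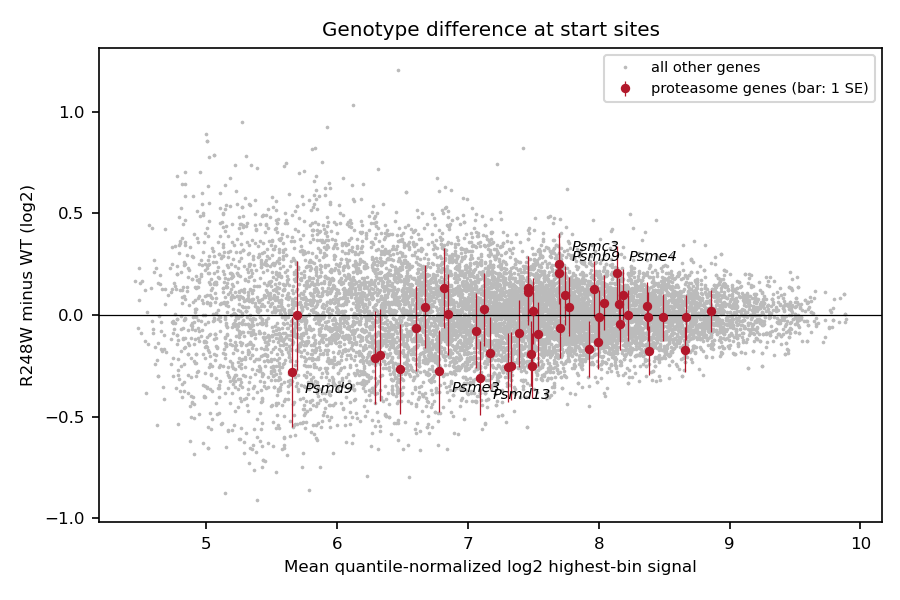
Difference in quantile-normalized log2 highest-bin signal, R248W minus WT (vertical axis), by mean signal (horizontal axis, log2) for 12517 start sites, with the 45 proteasome genes in red, bars of 1 SE, and the 3 largest differences per direction named. The red points lie between -0.31 and 0.25, inside the gray cloud.

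By percentile, without any scaling, 3 members were higher in both R248W libraries than in both WT libraries: Psmb9 (88.3 and 87.5 in WT, 89.5 and 92.0 in R248W), Psmc3 and Psme2. That is 6.67% of the 45, against 13.8% of all genes tested. Another 8 were lower in both R248W libraries, namely Psma4, Psmb3, Psmb6, Psmd1, Psmd13, Psmd14, Psmd3 and Psme3, or 17.8% against 10.7%. Psmb6 and Psmb9, the beta1 pair, thus differed in direction: Psmb6 stood at 84.4 and 87.3 in WT and at 83.9 and 80.9 in R248W. Neither gene passed the test (limma adjusted p = 0.997 for both), and the pair was singled out after its values were seen. The Psmb9 interval is shared with Tap1, so its direction cannot be assigned to Psmb9 alone.

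Away from start sites, few regions assigned to proteasome genes followed the genotype. Merging intervals that share at least 1 base gave 122 regions assigned to members, of 69759 in all. All 46 start-site regions were called in all 4 libraries, as were 46 of the other 76. Over the 122 member regions the share was 75.4%, against 58.05% of all regions. The share of all regions does not separate start sites from other regions. R248W-only regions, called in both R248W and neither WT library, numbered 3 (2.46%, against 1.23% of all regions). They were assigned to Psmf1 (28429 to 28493 bases downstream of the start, signals of 25 and 31), Psmg3 (7835 to 7867 bases downstream, 31 and 30) and Psmd7, which encodes Rpn8 (11554 to 11602 bases downstream, 52 and 39). WT-only regions numbered 2 (1.64%, against 0.827%), at Psmd9 (7650 to 7746 bases inside the gene, 19 and 30) and Psmg4 (18831 to 18847 bases downstream, 23 and 30). All 5 were weak. With the same number of intervals kept per library, the R248W-only regions numbered 2 (at Psmd7 and Psme4, 1.77% against 1.49% of all regions) and the WT-only regions 0 (against 1.39%). Leaving out WT 2 gave 6 R248W-only regions (5.17%, against 10.2% of all), leaving out R248W 2 also gave 6 (5.04% against 6.73%), and leaving out R248W 1 gave 7 (5.83% against 3.65%). WT-only regions numbered 8 without WT 1 (6.56% against 8.18%) and 6 without R248W 1 (5.00% against 5.81%). The shares of member regions thus lay on either side of the shares of all regions, depending on the library left out. Read depth is unknown, and depth and chromatin cannot be told apart behind a missing call.

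Most genes that act with the proteasome had accessible start sites as well. Of 44 listed genes in 5 groups, 40 (90.9%) had a start-site interval in all 4 libraries, against 60.15% of all genes. Their median percentiles were 91.6, 93.0, 92.8 and 92.0. Adrm1, the ubiquitin receptor Rpn13, which lies outside the symbol pattern, had 404, 776, 774 and 485 and percentiles from 99.1 to 99.7, above every member of the symbol family. The exceptions included Tap2, the class I transactivator gene Nlrc5 and the receptor gene Ifngr2. Nlrc5 had no start-site interval in any library. Of the 40 tested for genotype, 0 passed (smallest limma adjusted p = 0.917) and 2 were below 0.05 unadjusted, a share close to the 4.81% of all genes, with 20 above 0 and 20 below.

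The gate was checked by start sites of marker genes. Kit, which defines the gate, had a start-site interval in all 4 libraries (143, 277, 312 and 172), while Ly6a, which encodes Sca1, had assigned intervals in each but none at its start. Of 10 stem and progenitor genes 8 had one in all 4, against 0 of 9 markers of mature T, NK and B cells, 1 of 6 mature myeloid, 2 of 5 erythroid and 2 of 4 stromal and endothelial markers. Fewer cells of a type and less accessibility per cell cannot be told apart in these bulk libraries.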

How the data were processed

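The submitters' processing notes name MACS 1.4.2 and mm10. Aligner, read filters, insertion shift, depth and scaling of the signal: not given in the sources used here. Per the file headers, each interval of the 4 lists (46720, 62478, 60385 and 51150 intervals in WT 1, WT 2, R248W 1 and R248W 2) carries the authors' highest-bin and mean-bin signal, unscaled here, and positions, counts of bins, islands and genes, and other descriptors deposited by the authors. More depth would call more weak intervals.

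Computed here were start-site intervals (the highest within 1 kb), percentiles (ties at mid-rank), merged regions, and a limma 3.58.1 test with eBayes trend (R 4.3.3, python 3.11.15) on genotype. A check of this test on simulated data required recovery only of planted changes far larger than the member differences. Scaling is unknown, so quantile normalization assumes equal distributions. Genes missing a call in any library, such as Psmb1, were not tested. P-values measure only the spread between these libraries. Promoter sequences came from RefSeq GRCm38.p6.

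Genes named were the catalytic, tissue-specific, activator and inhibitor genes, the highest and lowest of each subfamily, members lacking a start-site interval, the 3 largest genotype differences per direction and genes with genotype-specific regions. Other values complete groups. Some listed genes are not reported here by name. The members and lists were chosen with earlier results of these data known. Alternatives were other windows, signals, scalings, filters, list lengths and overlaps, a replicate block, and each library left out.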

Additional observations from a re-analysis of the deposited data

How the results depend on the processing

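The count of 45 proteasome genes with a start-site interval in all 4 libraries stayed within 1.5 times under the 4 alternatives tried. The median percentile, 88.3 on average over the libraries, was 62.9 among start-site intervals alone and 86.3 with the same number of intervals per library. The difference of immunoproteasome and constitutive genes, 3.76 points, was 6.93 with mean-bin signal and -3.04 with 5 interferon-inducible genes against all other members; the cause was not tested. No proteasome gene passed the genotype test under any of the 11 other settings. Over all genes, the 2 calls became 0 with median scaling, no scaling, mean-bin signal or start sites above the median signal, and 0 to 0 when a library was left out, where the lone library of a genotype is assumed to vary like the others; 3 genes passed with a replicate block. Same-numbered libraries share only a number: the correlation of their deviations was 0.0911 over 12517 genes. Over the libraries left out, the difference ranged from -0.59 to 0.032 for Psmd9 and from -0.012 to 0.42 for Psme4, reversed without WT 1 in both. R248W-only member regions numbered 4 to 7 (main value 3) and WT-only regions 2 to 8 (main value 2) when a library was left out, while the shares over all regions were 1.60 to 10.2% and 1.41 to 8.18%. With the same number of intervals per library they were 2 and 0.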

Other observations

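The regions assigned to proteasome genes away from their starts were strongest where they held the start of another gene. Of 76 such regions, 14 lay at another start, with a median highest signal of 230.0 (the highest of the 4 libraries), and 62 lay at no other gene's start, with a median of 69. Starts are those of the authors' distances: 1 of the 62, inside Psmc2, covers a second RefSeq start of that gene (chromosome 5, 21786747). The strongest was assigned to Psmc3 in WT 2 and R248W 1 and lies at the start of the zinc transporter gene Slc39a13 (chromosome 2, 91068977 to 91071359, signals of 426, 696, 718 and 413 in the order used above). Among regions at no other start, the strongest was the one inside Tap2 described with Psmb8, followed by a region at -5099 to -5067 bases from the Psmd1 start (149, 228, 256 and 171).

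A region 116513 bases downstream of the Psme4 start (chromosome 11, 30888000 to 30888592) was called in R248W 2 alone with a signal of 152, the highest of the 30 member regions not called in every library. Psmc3ip, the pattern match that is no proteasome gene, had start-site signals of 124, 152, 148 and 95 and a mean percentile of 78.8.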
